A study of Gallus gallus with 28 samples.

Results

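OCM2, PVALB, CALB2 and CALB1 encode small calcium-binding proteins, and all 4 were present among the 17684 features of an RNA sequencing series on the basilar papilla of the chicken, its auditory sensory epithelium. The genes were taken by name, with earlier results of these data known. Papillae in the tested arm had been dissected and exposed for 24 h to streptomycin, an aminoglycoside toxic to hair cells, and were then left to recover, while control papillae received no treatment. There were 15 treated and 13 control samples at 0, 24, 48, 72, 96, 120, 144 and 168 h, with 2 samples in 12 of the 16 groups and 1 in the treated group at 96 h and in the controls at 72, 96 and 120 h. The sources used here give no strain, no age and no number of animals per sample. The p-values therefore cover only the spread among these libraries, which may be technical. The question was which of the buffers tracked the loss of hair cells and which did not.

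Hair cells turn sound into calcium entry, through transduction channels in the hair bundle and through voltage-gated channels beside the ribbon synapse. Mobile proteins with EF-hand motifs bind much of that calcium, which limits its spread, and pumps of the plasma membrane return it to the outside. Parvalbumins and oncomodulins form one family of such buffers, and calbindin D28k (CALB1) and calretinin (CALB2) form another. Calbindin and calretinin are also known from many neurons, and parvalbumin from fast skeletal muscle, so none of these genes has to come from hair cells alone.

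Levels are given in RPKM as deposited by the authors, that is, reads scaled by gene length and by the size of the library. Since RPKM is scaled by gene length, levels are set beside each other between genes. Such comparisons are rough, as the sources used here give neither the annotation nor the counting rule behind the lengths and reads. Differences are treated minus control on the scale of log2(RPKM + 1) with their standard error, a scale on which changes of weakly expressed genes come out too small. They come from limma, fitted across all 12195 features with at least 1 RPKM in at least 2 samples, and a gene is said to have risen or fallen where the Benjamini-Hochberg adjusted p over these features was under 0.05. All 4 genes passed the filter on low values. As the samples are pieces of whole tissue, fewer cells of a type and less RNA per cell cannot be told apart in any of the values.

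The OCM2 row needs a remark on its name. In the RefSeq gene table for the chicken assembly GRCg7b, OCM2 stands as a synonym of OCM3, together with ATH, while the related gene OCM1 carries the synonym CPV3, the parvalbumin best known from chicken hair cells. OCM1 was not analysed here. Genes of this family are similar in sequence, so which of them gave the reads counted under OCM2 is uncertain. The other genes matched RefSeq by their own symbols. No sequences are shown.

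OCM2 was the buffer most strongly reduced after streptomycin, and it stayed low in treated papillae to the last time. At 0 h it stood at 26.3 and 21.6 RPKM in treated papillae, against 755 and 737 RPKM in controls. At 24 h the treated samples held 5.51 and 6.36 RPKM and the controls 325 and 414 RPKM. At 48 h the values were 3.13 and 3.30 RPKM in treated papillae and 603 and 416 RPKM in controls. The treated level thus fell further after the end of exposure, and treated samples at 48 h were below those at 0 h (-2.56 ± 0.37, limma adjusted p = 0.000396, with 2.8% of features called lower). The steps from 0 to 48 h and from 48 to 168 h were chosen after their values were seen. The same step in controls gave -0.57 ± 0.37 (adjusted p = 0.290).

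From 72 h on, every treated sample held between 1.74 and 6.17 RPKM of OCM2. At 72 h there were 5.08 and 2.18 RPKM in treated papillae against 699.7 RPKM in the lone control, and at 96 h 1.74 RPKM in the lone treated sample against 301 RPKM in the lone control. At 120 h the treated samples held 4.25 and 2.81 RPKM and the control 210.5 RPKM. By contrast with the flat treated level, the control level was now falling. At 144 h there were 1.74 and 6.17 RPKM in treated papillae against 81.1 and 112 RPKM in controls, and at 168 h 4.40 and 2.59 RPKM in treated papillae against 115 and 84.3 RPKM in controls.

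Treated and control samples did not overlap for OCM2 at any time or over all times, which held for 1.41% of the features tested when all times were pooled with treated samples below. The treated mean was 3.21% of the control mean at 0 h, 1.61% at 24 h, 0.631% at 48 h, 0.519% at 72 h, 0.577% at 96 h, 1.68% at 120 h, 4.09% at 144 h and 3.51% at 168 h. Over all times OCM2 averaged 6.47 ± 7.29 RPKM in treated papillae (SD, n = 15) and 373 ± 255 RPKM in controls (SD, n = 13). None of the tested features had a more negative difference over all times (-5.63 ± 0.24, limma adjusted p = 3.72e-14), where 21.7% of features were called lower. OCM2 fell at each of the 8 single times as well, while the share of features called lower was 10.9% at 0 h, 18.3% at 24 h, 13.9% at 48 h, 7.5% at 72 h, 2.07% at 96 h, 2.28% at 120 h, 4.3% at 144 h and 1.03% at 168 h.

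**Figure D1:**
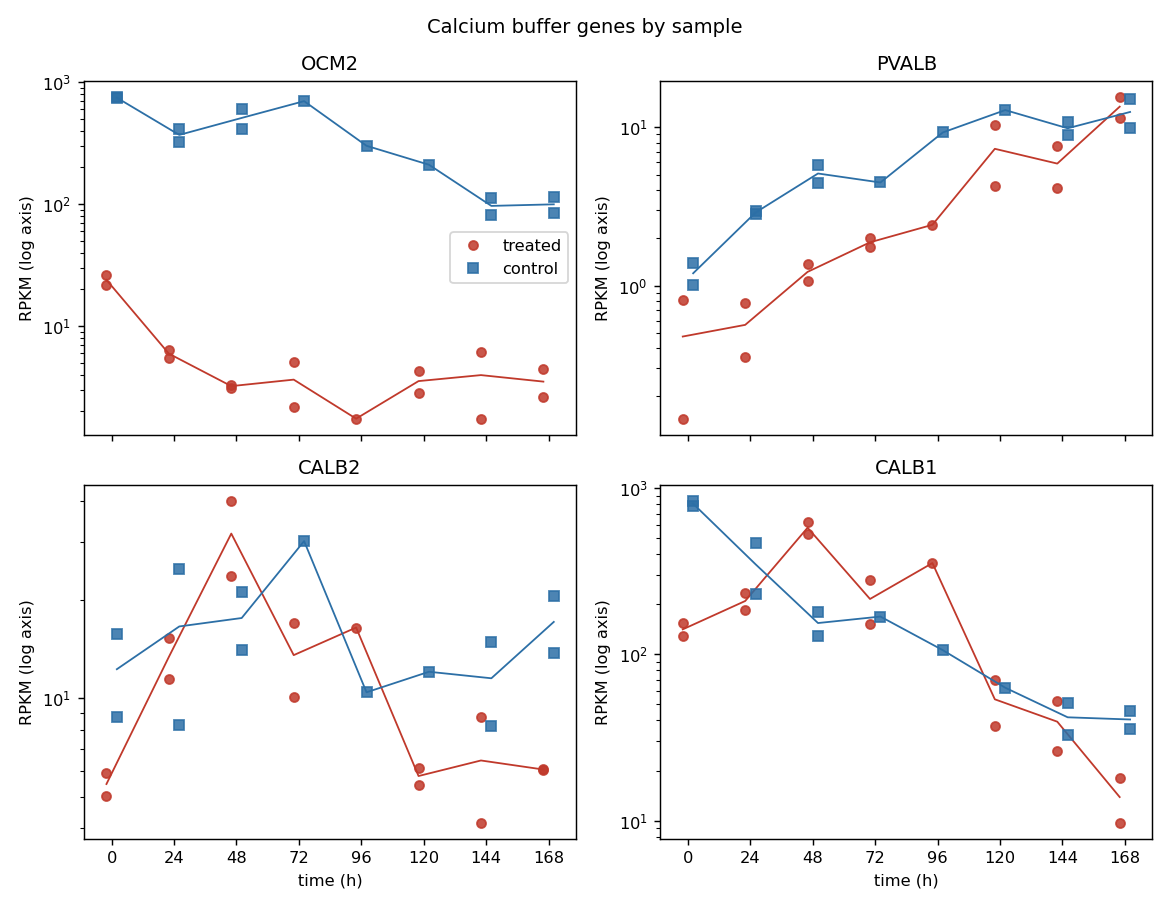
Level of each calcium buffer gene in RPKM (log axis) by time, with 1 point per sample, treated samples (circles) drawn left of control samples (squares), and lines through the means of each group. OCM2 is at most 26.3 RPKM in treated samples and at least 81.1 RPKM in controls, whereas the other 3 genes overlap between the arms.

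CALB1, the calbindin D28k gene, crossed from below to above its control within the first 48 h. At 0 h there were 129 and 153 RPKM in treated papillae, against 835 and 776 RPKM in controls. At 24 h the treated samples held 186 and 233 RPKM and the controls 467 and 229 RPKM. At 48 h treated papillae reached 527 and 628 RPKM, against 179 and 129 RPKM in controls. The arms were therefore apart at 0 h and at 48 h, in opposite directions, and overlapped at 24 h. At 0 h every treated sample was below every control sample for 31.2% of features, and at 48 h every treated sample was above every control sample for 37.8%.

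CALB1 fell at 0 h (-2.51 ± 0.40, limma adjusted p = 0.000272) and rose at 48 h (1.91 ± 0.40, adjusted p = 0.00223), where 13.8% of features were called higher. At 24 h the difference was -0.65 ± 0.40 (adjusted p = 0.222). The change of the difference between 0 and 48 h was itself tested, after its values were seen, and came to 4.42 ± 0.57 (adjusted p = 0.000456). Of all tested features 1 had a larger change, and 3.88% were called higher. Within treated papillae alone CALB1 was 4.09-fold higher at 48 h than at 0 h (2.02 ± 0.40, adjusted p = 0.00461, with 6.91% of features called higher), and within controls its mean at 48 h was 0.191 of that at 0 h (-2.40 ± 0.40, adjusted p = 0.000510, with 7.56% called lower). The treated step had an adjusted p of 0.0524 without the second treated sample at 48 h.

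Later on, CALB1 declined in both arms. At 72 h there were 152 and 279 RPKM in treated papillae against 169 RPKM in the lone control, and at 96 h 354 RPKM in the lone treated sample against 106 RPKM in the lone control (1.73 ± 0.57, limma adjusted p = 0.112). At 120 h the treated samples held 36.8 and 70.4 RPKM and the control 63.0 RPKM. At 144 h the values were 26.2 and 52.5 RPKM in treated papillae and 32.6 and 51.0 RPKM in controls. Of 120, 144 and 168 h, the last was the only time without overlap, with every treated sample below every control sample, as in 26.4% of features. At 168 h there were 18.0 and 9.70 RPKM in treated papillae against 35.6 and 45.5 RPKM in controls (-1.53 ± 0.40, adjusted p = 0.0804).

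Between 48 and 168 h the mean of CALB1 dropped 41.7-fold in treated papillae (-5.34 ± 0.40, limma adjusted p = 4.46e-07, with 18.1% of features called lower) and 3.80-fold in controls (-1.89 ± 0.40, adjusted p = 0.00305, with 12.3% called lower). The change of the difference over these hours was -3.45 ± 0.57 (adjusted p = 0.00109, with 7.33% of features called lower). As the sign of the difference turned with time, averages over times say little of this gene. The difference was -0.30 ± 0.32 over all times (adjusted p = 0.466), -0.42 ± 0.23 over 0 to 48 h (adjusted p = 0.149) and -0.66 ± 0.25 over 120 to 168 h (adjusted p = 0.0764). With 0 and 24 h alone as the early window it was -1.58 (adjusted p = 0.000296).

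CALB2, the calretinin gene, was less abundant than CALB1 in each of the 15 treated and 13 control samples, and its treated level was also highest at 48 h. At 0 h there were 5.02 and 5.90 RPKM in treated papillae, against 8.78 and 15.7 RPKM in controls. At 24 h the treated samples held 11.4 and 15.3 RPKM and the controls 8.28 and 24.8 RPKM. At 48 h the values were 23.7 and 40.0 RPKM in treated papillae and 14.02 and 21.1 RPKM in controls. The second sample exceeded the first in all of these groups, and the spread between the 2 samples of a group was wide in controls.

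The treated level of CALB2 at 48 h was 5.83-fold that at 0 h (2.30 ± 0.43, limma adjusted p = 0.00312), and 0.0557 is the adjusted p of this step without the second treated sample at 48 h. Controls over the same hours gave 0.51 ± 0.43 (adjusted p = 0.444). The change of the difference between 0 and 48 h was 1.79 ± 0.61 (adjusted p = 0.0781, and 0.00976 with sample numbers as a replicate block within each time).

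At later times CALB2 was mostly lower in treated papillae. At 72 h there were 17.0 and 10.1 RPKM in treated papillae against 30.2 RPKM in the lone control, and at 96 h 16.4 RPKM in the lone treated sample against 10.4 RPKM in the lone control. At 120 h the treated samples held 5.44 and 6.11 RPKM and the control 12.03 RPKM. The arms then overlapped at 144 h, with 4.16 and 8.73 RPKM in treated papillae against 8.20 and 14.8 RPKM in controls. They were apart at 168 h, with 6.07 and 6.03 RPKM in treated papillae against 20.5 and 13.7 RPKM in controls. Every treated sample was below every control sample at 168 h in 26.4% of features.

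Over 120 to 168 h CALB2 averaged 6.09 ± 1.49 RPKM in treated papillae (SD, n = 6) and 13.8 ± 4.48 RPKM in controls (SD, n = 5), a fall of -1.02 ± 0.27 (limma adjusted p = 0.0142) that was seen in 6 of 6 treated samples against the control mean of their time. In this window 15.1% of features were called lower. The difference was -0.10 ± 0.25 over 0 to 48 h (adjusted p = 0.758) and -0.51 ± 0.21 over all times (adjusted p = 0.0512, and 0.0417 with the replicate block). Between the windows the difference changed by -0.91 ± 0.37 (adjusted p = 0.0641, and 0.00682 with the block). No single time passed without the block, whereas with it 0 h (-0.99, adjusted p = 0.0136), 48 h (0.80, adjusted p = 0.0343), 72 h (-1.14, adjusted p = 0.0284) and 168 h (-1.33, adjusted p = 0.0219) did. At 72 h, with its lone control, the block does not enter. The call there comes only from a smaller shared spread (standard error 0.32 in place of 0.53).

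PVALB, the gene of the parvalbumin of fast muscle and many neurons, was the scarcest buffer at first and increased with time in both arms. At 0 h there were 0.808 and 0.144 RPKM in treated papillae, against 1.01 and 1.38 RPKM in controls. At 24 h the treated samples held 0.354 and 0.774 RPKM and the controls 2.96 and 2.82 RPKM. At 48 h the values were 1.37 and 1.06 RPKM in treated papillae and 5.76 and 4.44 RPKM in controls. These are low counts, as the level of 0.144 RPKM stands for 3.002 alignments per kilobase of gene and the first treated value at 0 h for 23.4.

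At 72 h PVALB stood at 2.00 and 1.75 RPKM in treated papillae against 4.48 RPKM in the lone control, and at 96 h at 2.42 RPKM in the lone treated sample against 9.27 RPKM in the lone control. At 120 h the treated samples held 4.28 and 10.3 RPKM and the control 12.8 RPKM. At 144 h there were 4.15 and 7.64 RPKM in treated papillae against 8.93 and 10.8 RPKM in controls. Every treated sample was thus below every control sample at each time to 144 h, an order also seen at 0 h in 31.2%, at 24 h in 30.6%, at 48 h in 34.2%, at 72 h in 33%, at 96 h in 42.7%, at 120 h in 51% and at 144 h in 28.1% of features and, at 168 h, where PVALB no longer had it, in 26.4%. At 168 h the arms overlapped, with 11.5 and 15.5 RPKM in treated papillae and 9.95 and 15.03 RPKM in controls.

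PVALB fell over all times (-0.87 ± 0.15, limma adjusted p = 7.96e-05) and over 0 to 48 h (-1.13 ± 0.19, adjusted p = 8.97e-05, with 23.5% of features called lower), where it averaged 0.753 ± 0.451 RPKM in treated papillae and 3.06 ± 1.81 RPKM in controls (SD, n = 6 each). Single times passed at 24 h (-1.33 ± 0.32, adjusted p = 0.00407) and 48 h (-1.45 ± 0.32, adjusted p = 0.00329). With a pseudocount of 0.1 the difference at 0 h passed too (-1.45, adjusted p = 0.0446), and with rescaled libraries that at 96 h (-1.66, adjusted p = 0.0407). Over 120 to 168 h the difference was -0.47 ± 0.20 (adjusted p = 0.109), with 8.90 ± 4.42 RPKM in treated papillae (SD, n = 6) and 11.5 ± 2.44 RPKM in controls (SD, n = 5), and at 168 h it was 0.11 ± 0.32 (adjusted p = 0.921). The change between the windows was 0.66 ± 0.28 (adjusted p = 0.0743), and it passed with a pseudocount of 0.1 (1.36, adjusted p = 0.0226) and with rescaled libraries (0.77, adjusted p = 0.0335). Between 48 and 168 h the difference changed by 1.57 ± 0.46 (adjusted p = 0.0313, with 5.54% of features called higher), a call that ended with a pseudocount of 0.1 (adjusted p = 0.0666) and, without the filter on low values, gave 0.0583.

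PVALB rose with time within each arm. From 0 to 48 h to 120 to 168 h it rose by 2.41 ± 0.19 in treated papillae (limma adjusted p = 1.79e-08, with 24.8% of features called higher) and by 1.75 ± 0.20 in controls (adjusted p = 2.15e-06, with 28.7% called higher). Its mean at 168 h was 28.3-fold that at 0 h in treated papillae and 10.5-fold in controls. PVALB is known as a gene of fast muscle, and the summed level of 9 skeletal muscle markers ranged from 4.24 to 30.6 RPKM in treated and from 31.0 to 65.9 RPKM in control samples. Of these markers 6 were under 1 RPKM in every treated and 6 in every control sample, MYL1, TNNT3, TNNI2, MYOD1, MYOG and TTN, and TNNC2 averaged 3.31 ± 1.67 RPKM in treated (SD, n = 15) and 26.0 ± 10.6 RPKM in control samples (SD, n = 13). Between the windows ACTA1 rose in both arms (1.42 in treated papillae and 2.16 in controls), as did DES (0.31 and 0.46) and 9 of 9 leukocyte markers, whereas TNNC2 rose in treated papillae (0.61) and fell in controls (-1.23). The part of muscle cells and leukocytes in the PVALB values was not tested.

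**Figure D2:**
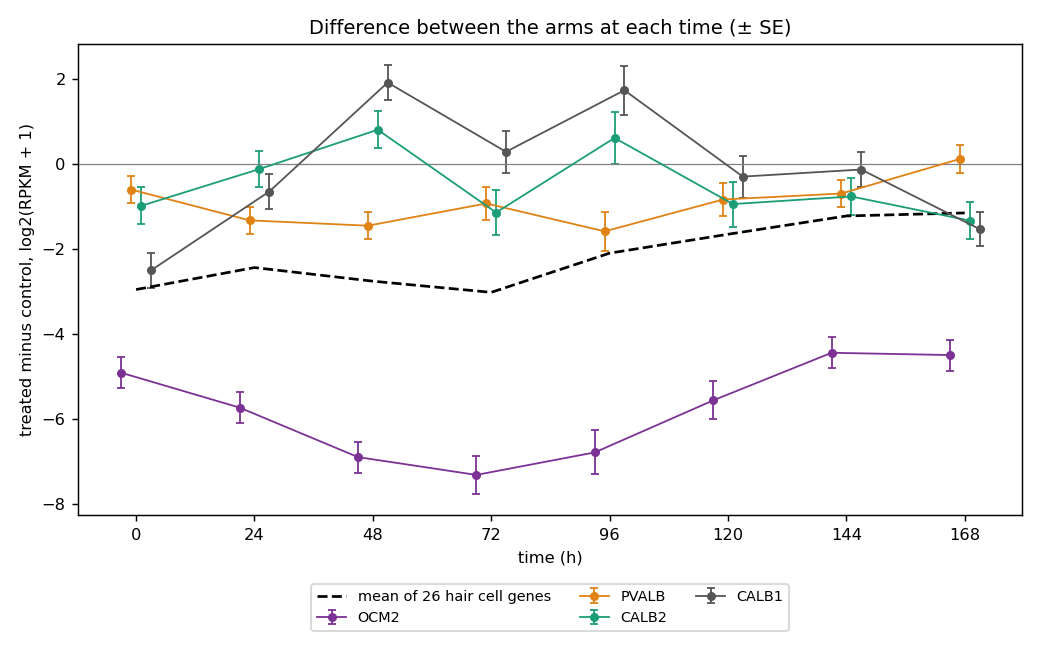
Treated minus control difference on the log2(RPKM + 1) scale at each time (points, with bars for the standard error from limma), beside the mean difference of 26 hair cell genes (dashed line). OCM2 lies under the dashed line at every time, and CALB1 runs from -2.51 at 0 h through 1.91 at 48 h to -1.53 at 168 h.

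To ask which buffers tracked hair cells, each was set against a list of 26 other genes of the hair bundle, mechanotransduction, ribbon synapse and hair cell transcription, such as OTOF, SLC17A8, MYO7A and POU4F3. Of these 26 genes, 0 rose and 25 fell over all times, beside 20.2% of all features called higher and 21.7% called lower. Their median was -2.35 beside a median of 0.01 for all features. The mean log2(RPKM + 1) of the list was 0.98 ± 0.13 in treated papillae (SD, n = 15) and 3.12 ± 0.68 in controls (SD, n = 13), and the arms did not overlap. Its difference was -2.96 at 0 h, -2.76 at 48 h, -3.02 at 72 h and -1.15 at 168 h. The summed level of the list was 65.9 to 126 RPKM in treated (median 88.3) and 145 to 549.7 RPKM in control samples. Most of the treated sum came from MYO6 and USH1C, so it says little of the other genes. MYO6 averaged 38.3 ± 15.6 RPKM in treated and 49.4 ± 17.8 RPKM in control samples (SD, n = 15 and 13). USH1C averaged 37.5 ± 11.6 RPKM and 35.4 ± 6.41 RPKM in the same samples.

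Each buffer was then expressed relative to this mean within each sample, and treated and control labels were permuted within times. On the log2(RPKM + 1) scale OCM2 differed more between the arms than the mean of the hair cell genes did (-3.60 over all times, exact permutation test, two-sided, p = 7.14e-06, adjusted p = 4.29e-05 over 12 values), in 15 of 15 treated samples. For the other buffers the value was above 0, that is, their difference was less negative than that of the hair cell mean, with 1.25 for PVALB (adjusted p = 4.29e-05), 1.68 for CALB2 (exact permutation p = 8.57e-05, adjusted p = 0.000343) and 2.01 for CALB1 (exact permutation p = 0.000207, adjusted p = 0.000622). The hair cell mean itself differed by -2.16 over all times, -2.72 over 0 to 48 h and -1.34 over 120 to 168 h. A gene without any difference between the arms would thus also lie above 0. A value above 0 therefore does not set these buffers apart from unchanged genes. The smallest p that the 139968 arrangements over all times can give is 7.14e-06. The mean of the list is held up by low levels, as 13 of the 26 genes were under 1 RPKM in every treated sample. In RPKM the treated mean was 1.73% of the control mean for OCM2 and a median of 6.03% for the 26 genes, and 4 of them had a lower percentage than OCM2, TMC2 (0.553%), MYO3A (1.21%), SLC17A8 (1.33%) and TMPRSS3 (1.65%), while USH1C stood at 106% and MYO6 at 77.6%. Over 0 to 48 h all 4 buffers gave the smallest p the window allows (0.00926, exact permutation, adjusted p = 0.0123), with -3.13 for OCM2, 1.59 for PVALB, 2.62 for CALB2 and 2.30 for CALB1. The value of CALB1 joins unlike times, with differences of -2.51, -0.65 and 1.91 at 0, 24 and 48 h. The hair cell mean gave -2.96, -2.44 and -2.76 at these times. At 168 h OCM2 (-4.50), CALB1 (-1.53) and CALB2 (-1.33) had a more negative difference than the hair cell mean (-1.15), and PVALB (0.11) did not. Single times were not tested relative to the list.

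Where treated and control were swapped only within pairs of the same sample number, a test added after seeing the data, the smallest p is 0.000244 over all times and 0.0312 over 0 to 48 h, and all calls over these spans held (exact permutation adjusted p of 0.00146 to 0.00732 and of 0.0469).

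Over 120 to 168 h OCM2 still lay further down than the mean of the hair cell genes (-3.49, exact permutation adjusted p = 0.0123). Without the lone control at 120 h the value was -3.28 (adjusted p = 0.0667), as the fewer arrangements left cannot reach a p under 0.05. PVALB lay less far down (0.87, adjusted p = 0.0444), a call lost when any of the treated samples at 144 and 168 h, the lone control at 120 h or the first control at 144 or 168 h was left out (0.740 to 0.961). With swaps within pairs OCM2 (-3.44) and PVALB (0.66) both gave the smallest p that design allows here (0.0625, exact permutation adjusted p = 0.075), so neither could pass. For CALB2 (0.33, adjusted p = 0.194) and CALB1 (0.69, adjusted p = 0.182) a difference from the hair cell genes was not detected in this window, although with a pseudocount of 0.1 both passed (1.11, adjusted p = 0.0111, and 1.55, adjusted p = 0.0278). Values relative to the list depend on how high its genes stand, since the pseudocount compresses low levels.

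Set against each other over all times, OCM2 had a more negative difference than PVALB (-4.85), CALB2 (-5.28) and CALB1 (-5.62), each with the smallest p of the exact permutation test (7.14e-06, adjusted p = 1.43e-05 over 6 pairs). The other pairs gave -0.43 for PVALB minus CALB2 (adjusted p = 0.311), -0.77 for PVALB minus CALB1 (adjusted p = 0.242) and -0.34 for CALB2 minus CALB1 (adjusted p = 0.311), which does not show that they act alike.

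Hair cell genes also varied within an arm, and the buffers were correlated with their mean over the samples of each arm, 8 relations in all. In the 15 treated samples OCM2 gave r = -0.224 (Spearman rho = -0.311, permutation p = 0.424 and 0.258). PVALB went up with the hair cell mean (r = 0.712, rho = 0.804, permutation p = 0.00297 and 0.00049, adjusted p = 0.00594 and 0.00196). CALB1 gave r = -0.537 (rho = -0.525, permutation p = 0.0393 and 0.0466, adjusted p = 0.0629 and 0.0745) and CALB2 r = -0.228 (rho = -0.232, permutation p = 0.413 and 0.403). The treated range is narrow, as the hair cell mean ran only from 0.77 to 1.22, and both this mean and PVALB were higher at 120 to 168 h than at 0 to 48 h.

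In the 13 controls OCM2 went up and down almost in step with the hair cell mean (r = 0.994, rho = 0.967, permutation p = 1e-05 for both, the smallest that 100000 resamples can give, adjusted p = 8e-05). CALB1 was correlated with it too (r = 0.827, rho = 0.813, permutation p = 0.00084 and 0.00126), CALB2 gave r = 0.251 (rho = 0.368, permutation p = 0.401 and 0.216), and PVALB ran the other way (r = -0.789, rho = -0.747, permutation p = 0.00196 and 0.00435). The adjusted Pearson p was 0.00336 for CALB1, 0.424 for CALB2 and 0.00523 for PVALB. The hair cell mean, OCM2 and CALB1 were all lower at late times in controls, so these relations share the course of time. Before that CALB1 did not follow the hair cell mean throughout. Its control mean was 806, 348, 154 and 169 RPKM at 0, 24, 48 and 72 h, the last from a lone control. The hair cell mean in controls was 3.85, 3.27, 3.70 and 3.89 at these times.

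Without the 2 samples farthest from the median hair cell mean, r in treated samples was -0.243 for OCM2, 0.726 for PVALB, -0.123 for CALB2 and -0.509 for CALB1. In controls it was 0.991 for OCM2, -0.740 for PVALB, 0.0835 for CALB2 and 0.768 for CALB1. Among samples with no number in their title (n = 8 in each arm) r was -0.294 for OCM2 and 0.720 for PVALB in treated samples, and 0.994 and -0.671 for the same genes in controls. In treated samples numbered 2 (n = 7) r was -0.140 for OCM2 and 0.740 for PVALB, and controls numbered 2 were too few.

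**Figure D3:**
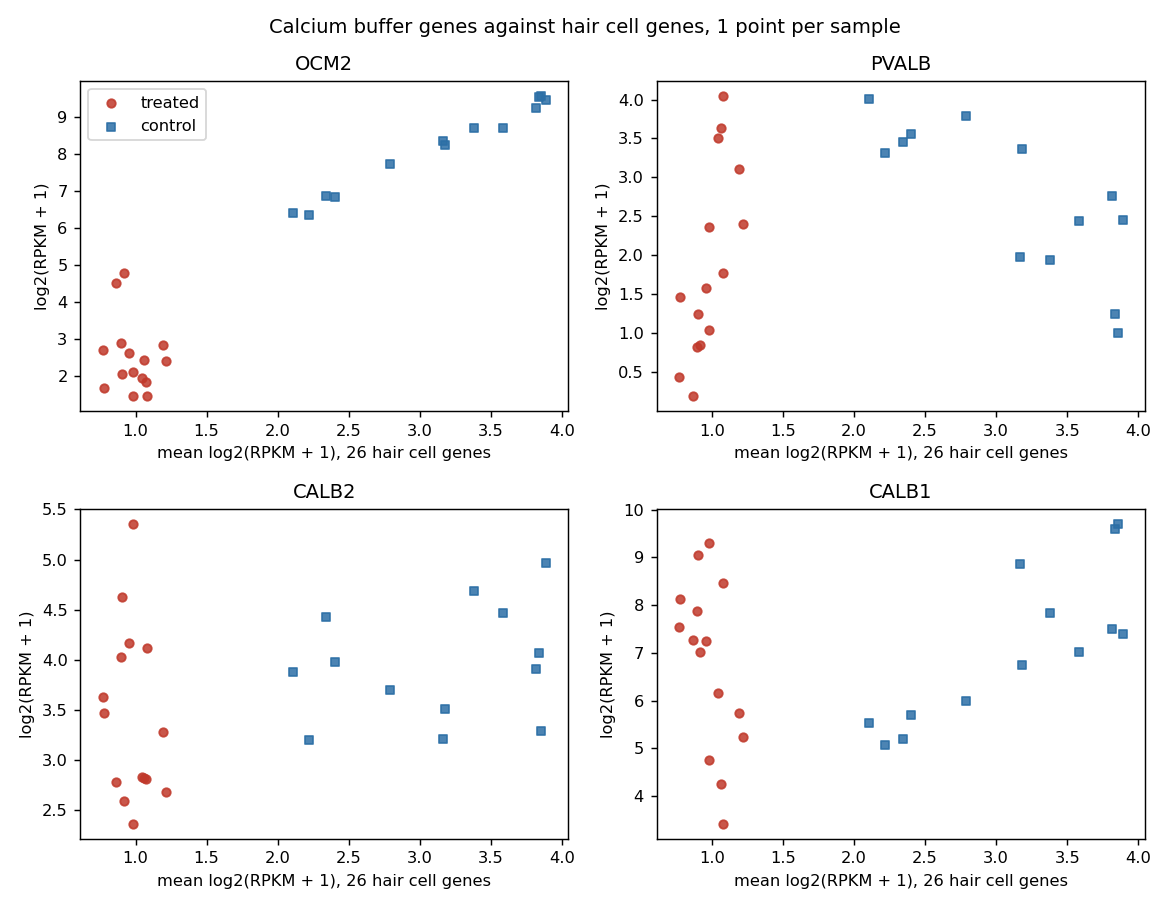
Level of each buffer gene in log2(RPKM + 1) against the mean log2(RPKM + 1) of 26 hair cell genes, 1 point per sample, treated as circles and control as squares. In treated samples the hair cell mean spans only 0.77 to 1.22, while in controls OCM2 lies close to a line (r = 0.994) and PVALB slopes the other way (r = -0.789).

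Over 120 to 168 h OCM2 was lower than over 0 to 48 h in treated papillae (-1.02 ± 0.21, limma adjusted p = 0.000575, with 29.9% of features called lower). This rests on the early times, as the treated mean was 23.9 RPKM at 0 h, 3.21 RPKM at 48 h and 3.50 RPKM at 168 h, and from 48 to 168 h the difference was 0.07 ± 0.37 (adjusted p = 0.923). OCM2 was also lower in the late window in controls (-2.03 ± 0.23, adjusted p = 1.64e-06, with 20.3% called lower). In treated papillae 7 of the 26 hair cell genes rose between the windows, a share near the 24.8% of all features called higher. Another 3 fell, beside 29.9% of all features called lower. Genes of the list that rose included POU4F3, a transcription factor of differentiating hair cells (1.38), OTOF, which encodes otoferlin of the ribbon synapse (1.18), and MYO7A, a motor of the hair bundle (0.93), whereas SLC17A8 gave 0.08 (adjusted p = 0.589). The 3 that fell were MYO6, a motor at the base of the hair bundle (-1.15), USH1C, a scaffold of the bundle (-0.81), and CLRN1 (-0.49). In controls 0 of the 26 rose and 24 fell, beside 28.7% and 20.3% of all features.

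From 0 to 48 h the treated minus control difference of OCM2 changed by -1.98 ± 0.52 (limma adjusted p = 0.0251, with 4.79% of features called lower, and 0.0529 without the filter on low values), and from 48 to 168 h by 2.40 ± 0.52 (adjusted p = 0.00603). Of the 26 hair cell genes 0 rose and 0 fell in the change from 0 to 48 h (median 0.13), beside 3.88% and 4.79% of all features. Within treated papillae over these hours 0 rose and 0 fell (median 0.02), beside 6.91% and 2.8%. Over 0 to 48 h 18 of the 26 were under 1 RPKM in every treated sample, where a further fall could hardly show. The gap between the arms for OCM2 narrowed by 1.01 ± 0.31 between the windows (limma adjusted p = 0.0180, with 12.6% of features called higher), while both arms went down. This call ended with a pseudocount of 0.1 (0.87, adjusted p = 0.0860) and with the windows narrowed to 0 and 24 h and to 144 and 168 h (0.85, adjusted p = 0.0968). The median change between the windows over the 26 hair cell genes was 1.48, with 2.99 for OTOF, 2.51 for POU4F3, 1.96 for MYO7A, 1.54 for SLC17A8, -0.18 for MYO6 and -0.89 for USH1C. Whether OCM2 differed from the hair cell genes in any of these changes was not tested.

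CALB1 fell between the windows in both arms, by -3.08 ± 0.23 in treated papillae (limma adjusted p = 1.37e-08) and by -2.84 ± 0.25 in controls (adjusted p = 1.25e-07). In the first comparison 5 tested features, and in the second 10, had a more negative change. CALB2 fell in treated papillae (-1.04 ± 0.25, adjusted p = 0.00198, and 0.245 with the narrower windows) and gave -0.12 ± 0.27 in controls (adjusted p = 0.732).

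The make-up of the buffer transcripts differed accordingly, as shares of the summed RPKM of the 4 genes. CALB1 made up 28.7% to 95.2% of the sum in treated samples (median 84.8%), and 18.7% to 58.1% in controls (median 24.9%). OCM2 made up 0.464% to 16.3% in treated samples (median 3.14%) and 40.5% to 77.5% in controls (median 62.0%), with no overlap between the arms. At 168 h PVALB reached 28.7% and 45.8% of the sum in treated papillae, against 5.50% and 9.48% in controls. Its level overlapped between the arms at that time, whereas the sum was 39.9 and 33.8 RPKM in treated papillae against 181 and 159 RPKM in controls. Over all times the sum was 33.8 to 673 RPKM in treated samples and 131 to 1600 RPKM in controls.

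The order of levels changed with it. In treated samples CALB1 was above OCM2 in 15 of 15 and CALB2 above OCM2 in 13 of 15, whereas OCM2 was the highest of the buffers in 10 of 13 controls and CALB1 in the other 3. Counted from the highest of the 17684 features in a library, OCM2 ranked 2314 and 2932 in treated papillae at 0 h and 32 and 43 in controls at 0 h. CALB1 ranked 291 and 238 in treated papillae and 26 and 39 in controls at that time.

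**Figure D4:**
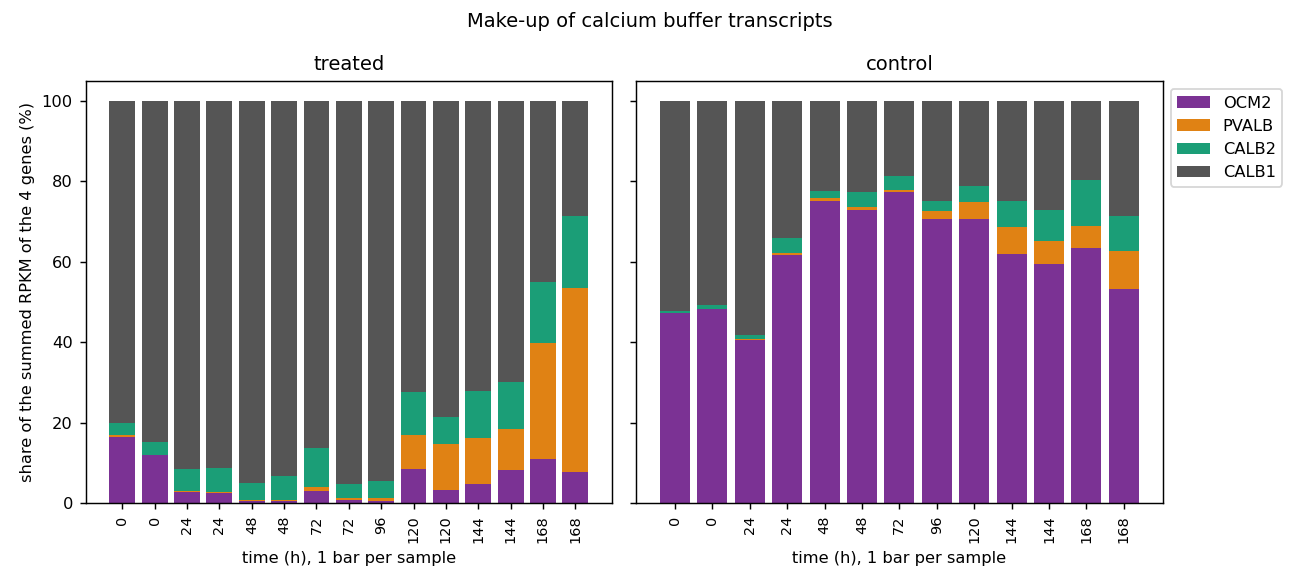
Share of OCM2, PVALB, CALB2 and CALB1 in their summed RPKM, 1 bar per sample in order of time, treated on the left and control on the right. OCM2 makes up at most 16.3% in treated samples and at least 40.5% in controls. PVALB reaches 45.8% in a treated sample at 168 h, where the sum is 33.8 RPKM.

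The genes whose levels ran most like each buffer over the 28 samples were sought among 8590 features with a RefSeq symbol and a mean of at least 1 RPKM, as a description, since all of them share the same libraries. For OCM2 these were PTPRQ (r = 0.974), SLC17A8 (0.971), TMC2 (0.970), PPP1R14D (0.966) and TTC34 (0.965). PTPRQ encodes a phosphatase of the hair bundle, SLC17A8 the glutamate transporter of hair cell synaptic vesicles and TMC2 a subunit of the transduction channel. Over 23 hair cell genes among these features the median pooled r with OCM2 was 0.933, beside -0.08 over all features. Within the arms, OCM2 and the mean of the hair cell list gave r = -0.224 in treated and 0.994 in control samples.

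None of the genes named for the other buffers belongs to the hair cell list. For PVALB the closest were CRTAP (r = 0.972), HM13 (0.947), SSPN (0.947), MCFD2 (0.945) and PDIA3 (0.944). CRTAP encodes a partner of the enzyme that modifies collagen, SSPN sarcospan of the dystrophin complex and PDIA3 a disulphide isomerase of the endoplasmic reticulum. For CALB1 they were EFR3A (0.912), IQSEC3 (0.904), SRGAP1 (0.878), CLGN (0.877) and IGDCC4 (0.874), and for CALB2 RNF157 (0.834), OTOP1 (0.739), PPP1R1C (0.716), PAPLN (0.714) and TMEM9 (0.707). OTOP1 encodes a proton channel known from the vestibular organ of mice. The median r with the 23 hair cell genes was 0.189 for PVALB, 0.325 for CALB2 and 0.251 for CALB1.

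Among other genes of calcium binding and sensing, 0 of 16 tested rose and 6 fell over all times, beside 20.2% of all features called higher and 21.7% called lower, with a median of -0.13 beside 0.01 for all features. CABP1, a calcium-binding regulator of calcium channels, stood at 0.653 ± 0.306 RPKM in treated and 18.0 ± 12.8 RPKM in control samples (SD, n = 15 and 13 here and in the values that follow; -3.10 ± 0.27, limma adjusted p = 4.96e-09). CIB2, a calcium-binding partner of the transduction channel, stood at 8.63 ± 4.95 RPKM in treated and 32.8 ± 22.8 RPKM in control samples (-1.62 ± 0.24, adjusted p = 1.19e-05). S100B, a calcium-binding gene also used as a glial marker, fell by 0.41 on the log2 scale (adjusted p = 0.0179).

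Of 10 tested genes of calcium entry and extrusion 0 rose and 5 fell, beside 20.2% and 21.7% of all features, with a median of -0.40. CACNA1D, the pore of the voltage-gated calcium channel at the ribbon synapse and also a gene of the hair cell list, stood at 0.413 ± 0.213 RPKM in treated and 8.95 ± 4.39 RPKM in control samples (-2.69 ± 0.18, limma adjusted p = 4.01e-11). ATP2B2, the calcium pump of the hair bundle, stood at 3.09 ± 1.65 RPKM in treated and 8.52 ± 5.30 RPKM in control samples (-1.09 ± 0.13, adjusted p = 4.85e-07). CACNB2, a subunit of voltage-gated channels, fell by 0.89 on the log2 scale (adjusted p = 2.07e-08). The pumps ATP2B1 (0.02 ± 0.12) and ATP2B4 (0.05 ± 0.10) did not pass over all times, but these averages join unlike times. Over 0 to 48 h ATP2B1 fell (-0.38 ± 0.11, limma adjusted p = 0.00709) and ATP2B4 rose (0.49 ± 0.08, adjusted p = 0.000132). Between the windows the difference changed by 0.65 ± 0.16 for ATP2B1 (adjusted p = 0.00503) and by -0.83 ± 0.12 for ATP2B4 (adjusted p = 0.000118).

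Of 12 tested genes of calcium stores 3 rose and 2 fell, shares near those of all features (20.2% higher and 21.7% lower), with a median of 0.05. ITPR1, a calcium release channel, stood at 16.5 ± 5.41 RPKM in treated and 10.4 ± 3.003 RPKM in control samples (0.62 ± 0.13, limma adjusted p = 0.000516). The reticulum pump ATP2A2 (0.28 ± 0.08, adjusted p = 0.00823) and the mitochondrial gene LETM1 (0.27 ± 0.09, adjusted p = 0.0251) rose as well. CASQ2, a calcium-storing protein of muscle reticulum, fell by 0.75 on the log2 scale (adjusted p = 3.17e-05), and RYR2, a release channel, by 0.33 (adjusted p = 0.00690).

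**Figure D5:**
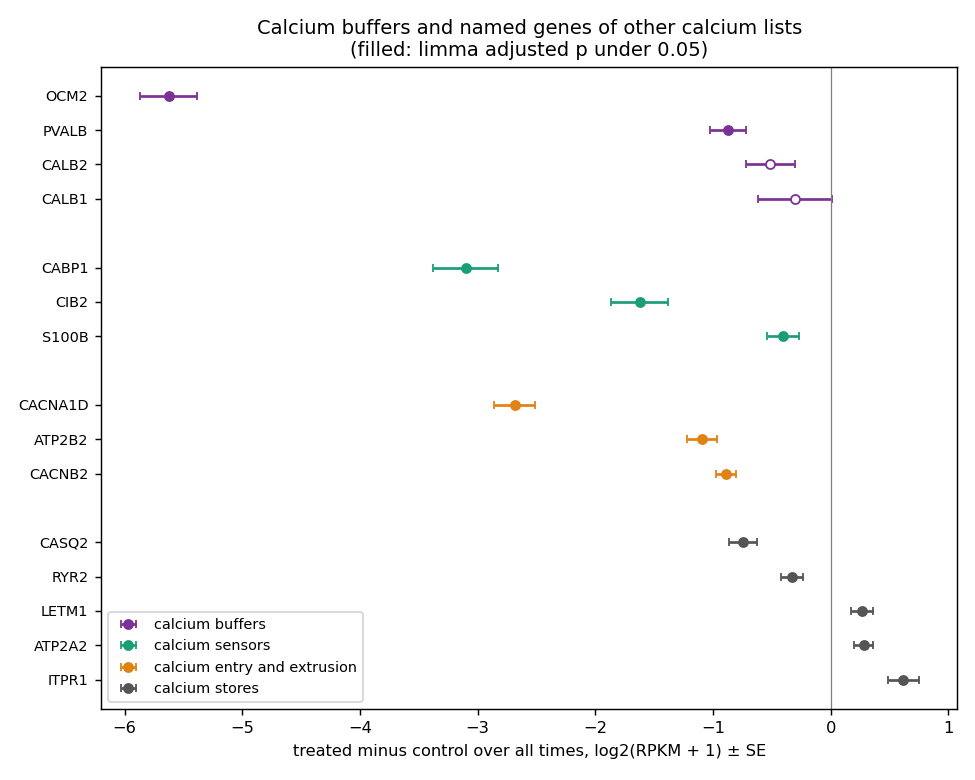
Treated minus control difference over all times in log2(RPKM + 1), with bars for the standard error from limma, for the 4 buffers and, from 3 lists of other calcium genes, up to 3 genes per direction that passed the test, filled where the adjusted p was under 0.05. OCM2 at -5.63 lies furthest from 0, followed by CABP1 at -3.10 and CACNA1D at -2.69.

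Libraries held 16477075 to 38168915 alignments (median 19848251), and the 2 libraries of a group correlated across features with r between 0.971 and 0.988. Markers of other cells are given beside 20.2% of all features called higher and 21.7% called lower over all times. The summed level of 10 supporting cell markers at 0 to 48 h was 1119 to 1932 RPKM in treated and 930.3 to 2021 RPKM in control samples, and over all times 7 of 9 tested rose while 1 fell. This sum leans on TECTB, with up to 1296 RPKM in treated and 1600 RPKM in control samples. At 48 h 8 of 9 rose and 0 fell, beside 13.8% and 13.9% of all features. In the change of the difference from 48 to 168 h 0 rose and 7 fell, beside 5.54% and 7.33%. The summed level of 9 neuron markers was 240.3 to 489.6 RPKM in treated and 410.003 to 523 RPKM in control samples at 0 to 48 h. At 120 to 168 h it was 239.98 to 514 RPKM in treated and 236 to 313 RPKM in control samples. UCHL1 weighed most in it, with a mean of 273 RPKM in treated and 204 RPKM in control samples. Over all times 1 of 8 tested neuron markers rose while 5 fell, with STMN2 under 1 RPKM in all samples. Of 9 leukocyte markers 0 rose and 6 fell, and of 4 glial markers tested 1 rose and 1 fell. The part of these cells in the values of CALB1, CALB2 and PVALB was not tested.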

How the data were processed

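RNA sequencing values of 28 samples were used. The authors deposited RPKM per feature and library, with the number of alignments, per the file headers. TopHat 1.4.0 and Partek 6.6 are named without roles in the submitters' processing notes, and the sources used here give no genome build, annotation, strand or counting rule. Of 32 value columns, 4 could be matched to no sample and were left aside. Samples were grouped by their titles. Features with at least 1 RPKM in at least 2 samples were fitted as log2(RPKM + 1) with limma 3.58.1 in R 4.3.3 (intensity trend, two-sided moderated test). Time and treatment were additive terms over all times (19 residual degrees of freedom), and the other contrasts came from the means of the 16 groups (12 residual degrees of freedom), where the spread of a lone sample is taken to be that of the other groups. Windows are means of the contrasts at 0, 24 and 48 h or 120, 144 and 168 h. Exact permutation tests averaged treated minus control over times. The fits were tested on simulated data.

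As a check of pairing, sample 1 minus sample 2 was taken in each arm and correlated across features, treated with control. This gave 0.307 (0 h), 0.292 (24 h), 0.105 (48 h), 0.478 (144 h) and 0.409 (168 h). The numbers were therefore taken to pair samples in the replicate block and in the swaps within pairs. The main fits and the main permutation tests did not use this pairing. Named genes are the 4 buffers, the 5 genes most like each, 4 hair cell genes, and up to 3 genes per direction from each calcium list that passed. ATP2B1, ATP2B4, TNNC2, ACTA1, DES, TECTB, UCHL1, and MYO6, USH1C, CLRN1, MYO3A and TMPRSS3 of the hair cell list were named after their values were seen. Members and lists were chosen with earlier results of these data known.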

Additional observations from a re-analysis of the deposited data

Results flagged for a closer look

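The treated minus control difference of several buffers was not the same at all times, by limma's test of the change itself. For CALB1 it changed by 4.42 between 0 and 48 h and by -3.45 between 48 and 168 h. For OCM2 it changed by -1.98 between 0 and 48 h (adjusted p = 0.0251), by 2.40 between 48 and 168 h (adjusted p = 0.00603) and by 1.01 between the windows. For PVALB the change between 48 and 168 h was 1.57 (adjusted p = 0.0313) and for CALB2 -2.14 (adjusted p = 0.0289). The changes of single times were chosen after seeing the data. Without the filter on low values 3 of these calls ended, with limma adjusted p of 0.0529 for OCM2 between 0 and 48 h, and of 0.0583 for PVALB and 0.0594 for CALB2 between 48 and 168 h. With 1 library left out, the highest adjusted p of these was 0.109, 0.117 and 0.126 in the same order.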

How the results depend on the processing

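The alternatives were another pseudocount, no filter, no trend, rescaled libraries, a replicate block, fits on fewer samples, narrower windows and each library left out. Of 188 values of the main comparisons under alternatives other than leaving out 1 library, 170 kept direction and side of the threshold. OCM2 and PVALB kept theirs over all times and over 0 to 48 h. The cause of the changes was not tested. CALB2 over all times passed with a pseudocount of 0.1 (-0.57), rescaling (-0.53), the replicate block within times (-0.51) or across samples (-0.54) and equal weights for times (-0.49), and ranged from -0.62 to -0.44 with 1 library left out. CALB1 over 0 to 48 h was -1.58 with narrower windows and -0.59 to -0.24 with 1 library left out. With 1 library left out, CALB2 over 0 to 48 h ranged from -0.35 to 0.14, and over 120 to 168 h CALB1 ranged from -0.83 to -0.49 and PVALB from -0.66 to -0.29.

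The change of the difference between windows was 0.75 for CALB1 and 0.85 for OCM2 with narrower windows, 0.87 for OCM2 and 1.36 for PVALB with a pseudocount of 0.1, and 0.77 for PVALB with rescaling, which shifts the median of all features by 0.13. The calls of OCM2 ended and those of PVALB were gained. For CALB2 it was -0.91 and -0.98 with the block within times and across samples. Leaving out 1 library gave -1.16 to -0.67 for CALB2 and 0.47 to 0.84 for PVALB. Relative to hair cell genes over 120 to 168 h, CALB2 was 1.11 and CALB1 1.55 with a pseudocount of 0.1, CALB2 was 0.76 against 4 hair cell genes, swaps within pairs (replicate block) gave -3.44 for OCM2 and 0.66 for PVALB, and leaving out 1 library gave -3.69 to -3.28 for OCM2 and 0.66 to 1.08 for PVALB.

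Late minus early in controls, CALB2 was 0.13 with the block within times, 0.057 with narrower windows and -0.37 to 0.12 with 1 library left out. From 48 to 168 h in controls it was 0.43 with that block and -0.32 to 0.24 with 1 library left out. At times with 2 samples in each arm, that block takes each group at the fitted level of its first sample. Within an arm, changes over time from that block depend on this coding and do not measure the effect of pairing. Other values that changed sign with 1 library left out had failed the test: CALB2 at 24 h (-0.86 to 0.62), CALB1 at 72 h (-0.15 to 0.72), 120 h (-0.76 to 0.16) and 144 h (-0.62 to 0.36), PVALB at 168 h (-0.16 to 0.39), and OCM2 from 48 to 168 h in treated papillae (-0.23 to 0.36). For PVALB from 48 to 168 h in controls the block within times gave 0.76 (limma adjusted p = 0.198), a lost call that depends on the same coding. Besides the calls given for CALB2, the block across samples gave one to PVALB at 96 h (-1.59), where each arm holds a lone sample. Apart from these and the swaps within pairs, the block changed no other call. Depth limits PVALB most, as its lowest level rests on 3.002 alignments per kilobase.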
